A study of Mus musculus with 4 samples.

Results

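This account concerns 6 genes that mark or drive the primed state of pluripotency, read in mouse embryonic stem cells held in a naive medium. They are Fgf5, Otx2, Pou3f1, Zic2, Zic5 and Sall2, taken by name from RefSeq, 6 of 21627 protein-coding genes on the autosomes and X. Every H3K4me3, CTCF and RAD21 peak in the body of each gene and 50 kb either side was collected. All 6 symbols were found. Zic5 and Zic2 lie 9.73 kb apart on chromosome 14, so their windows share 7 H3K4me3, 2 CTCF and 4 RAD21 peaks, and the 6 genes give 5 separate loci.

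The cells were Bruce-4, a C57BL/6J embryonic stem cell line, grown on gelatin in serum/2i/LIF with no treatment, and every library came from this one state. ChIP-exo, which maps protein on DNA by trimming immunoprecipitated fragments with an exonuclease, was run in 4 libraries of 10000000 fixed cells each. There was 1 library for H3K4me3, 1 for RAD21 and 2 for CTCF, and 3 peak lists were used, the CTCF list being a union. The lists hold positions only, with no height and unknown depth, and no list has a replicate. No test between conditions was therefore possible. Shares carry Wilson 95% intervals that cover counting error only, and a place without a peak shows only that none was called.

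Naive cells resemble the early epiblast and are kept so by LIF and by inhibitors of MEK and GSK3, the parts of 2i. On leaving this state cells switch on a primed programme. Fgf5 encodes a secreted growth factor that is a standard marker of primed epiblast. Otx2 encodes a homeodomain factor that helps drive the exit from the naive state and later patterns the head. Pou3f1 (Oct6) encodes a POU-domain factor, and Zic2, Zic5 and Sall2 encode zinc finger factors of the ZIC and spalt-like families. H3K4me3 marks active promoters and also poised ones that carry repressive marks as well. CTCF binds DNA and halts cohesin, the ring complex of which RAD21 is a subunit.

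RefSeq starts (GRCm38.p6, the assembly that mm10 names) were available for 4 of the 6 genes, Fgf5, Otx2, Zic5 and Sall2, with 8 starts between them. The promoters that the results turn on are shown first, each as the 250 bases before a start, 5′ to 3′ on the gene's own strand. In the first 4, capitals mark CpG dinucleotides.
Fgf5: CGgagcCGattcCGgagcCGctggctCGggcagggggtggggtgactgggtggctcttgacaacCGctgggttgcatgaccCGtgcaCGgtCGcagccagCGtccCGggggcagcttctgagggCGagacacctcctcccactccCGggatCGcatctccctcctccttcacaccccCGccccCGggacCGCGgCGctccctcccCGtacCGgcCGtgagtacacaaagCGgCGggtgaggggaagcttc
Sall2 inner start: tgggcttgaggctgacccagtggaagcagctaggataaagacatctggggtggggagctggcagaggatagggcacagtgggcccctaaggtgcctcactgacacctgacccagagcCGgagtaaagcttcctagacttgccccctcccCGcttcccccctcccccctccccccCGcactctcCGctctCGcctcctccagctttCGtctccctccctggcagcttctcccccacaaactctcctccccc
Sall2 outermost start: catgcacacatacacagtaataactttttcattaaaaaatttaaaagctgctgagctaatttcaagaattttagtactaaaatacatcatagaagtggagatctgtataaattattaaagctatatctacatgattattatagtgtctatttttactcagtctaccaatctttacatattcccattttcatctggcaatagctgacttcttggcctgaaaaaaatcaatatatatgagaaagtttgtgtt
Otx2 outermost start: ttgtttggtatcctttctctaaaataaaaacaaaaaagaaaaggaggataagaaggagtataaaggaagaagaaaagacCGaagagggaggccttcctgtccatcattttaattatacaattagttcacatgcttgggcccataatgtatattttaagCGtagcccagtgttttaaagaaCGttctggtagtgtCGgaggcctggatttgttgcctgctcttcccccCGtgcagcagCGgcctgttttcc
Fgf5 at chr5:98253934-98254183 (plus strand) held 24 CpGs, and the last 32 of these bases lay under an H3K4me3 peak. The Sall2 sequences are from the inner start, chr14:52316324-52316573, and the outermost start, chr14:52328671-52328920 (both minus strand). The inner one held 6 CpGs and all 250 bases lay under H3K4me3, whereas the outer one held 0 CpGs and no H3K4me3. The outermost Otx2 start, chr14:48667645-48667894 (minus strand), held 6 CpGs and no H3K4me3. For Zic5, chr14:122465659-122465908 (minus strand), capitals mark instead the bases under a CTCF peak, at positions -61 to -23 from the start.
Zic5: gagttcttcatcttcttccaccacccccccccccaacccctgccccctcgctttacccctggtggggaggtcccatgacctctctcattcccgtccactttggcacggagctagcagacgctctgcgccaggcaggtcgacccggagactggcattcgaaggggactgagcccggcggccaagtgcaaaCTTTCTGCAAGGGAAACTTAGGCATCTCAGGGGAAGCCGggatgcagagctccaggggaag

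H3K4me3 lay within 1 kb of an annotated end of 5 of the 6 genes, the exception being Sall2. Over all protein-coding genes the share was 57.2%. All 6 members had a peak inside the gene body, against 63.5% of protein-coding genes, or 64.9% with end peaks counted too. The marked stretches were narrow at Fgf5, Otx2 and Pou3f1 and wider at Zic2 and Zic5. The widest peak at an end was 507 bp at Fgf5, 447 bp at Otx2, 532 bp at Pou3f1, 1125 bp at Zic2 and 1055 bp at Zic5. For all 12361 marked genes the median was 920 bp with quartiles of 687 and 1209 bp. The 3 narrower members thus fell below the lower quartile of marked genes, while Zic2 and Zic5 lay between the median and the upper quartile.

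The Fgf5 peak covered the annotated start itself. It ran from 98254152 to 98254658 on chromosome 5 and was the only H3K4me3 peak in a window of 123 kb. No other gene had an annotated end in this window, so Fgf5 was the one promoter there. Of marked genes, 11.3% had a narrower widest peak.

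At Otx2 the mark did not cover any of the 4 annotated starts. The 447 bp peak, 48666431 to 48666877 on chromosome 14, lay inside the gene, 767 bp from the outermost start and 631 bp from the next. It counts as an end peak only because it is within 1 kb, and it drops out with windows of 500 bp. A wider peak of 788 bp lay 6.11 kb beyond that end, inside the antisense lncRNA gene Otx2os1 and 4470 bp from its annotated end. Another, of 521 bp, lay 27.4 kb beyond the gene and 35 bp from the pseudogene Gm48909.

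Pou3f1 carried a pair of short peaks. The first, 294 bp long, which is the shortest length in the H3K4me3 list, lay 235 bp below the lower end of the gene (124657118 to 124657411 on chromosome 4). It was also 76 bp from the end of the lncRNA gene Gm2164, so it cannot be assigned to either gene by position. The second, of 532 bp, lay within the gene and 900 bp from its lower end. The remaining 2 peaks of the window belonged to neighbours. One of 683 bp lay at an end of Utp11, which encodes a protein of ribosome biogenesis, and one of 1090 bp at an inner start of Fhl3, which encodes a LIM-domain protein.

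Zic2 and Zic5 had the most H3K4me3 of the members. At the lower end of Zic2 a peak of 1125 bp crossed into the gene, followed by one of 585 bp that lay 672 bp from that end. The first also covered an end of the lncRNA gene 2610035F20Rik. At Zic5 a peak of 1055 bp stopped 60 bp inside the start, with one of 308 bp farther in. With peaks up to 1 kb apart merged, the domain spanned 2270 bp at Zic2 and 1720 bp at Zic5. Beyond the gene pair, 1165 bp lay at the end of the lncRNA gene Gm5089. A peak of 766 bp lay inside Pcca, which encodes a subunit of propionyl-CoA carboxylase, 6136 bp from the nearest annotated start. No H3K4me3 was called within 1 kb of an annotated end of Pcca.

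Sall2 was marked inside the gene and at neither outer end. RefSeq gives it 2 starts, and a peak of 1133 bp, 52315519 to 52316651 on chromosome 14, covered the inner start at 52316323. The nearest H3K4me3 to the outermost start, at 52328670, was 10206 bp away. This is not rare among genes with several starts, since in 15.5% of 2761 such protein-coding genes an inner start window was marked and the outermost was not. A further peak of 294 bp lay in the Sall2 body, 2684 bp from its lower end.

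**Figure D1:**
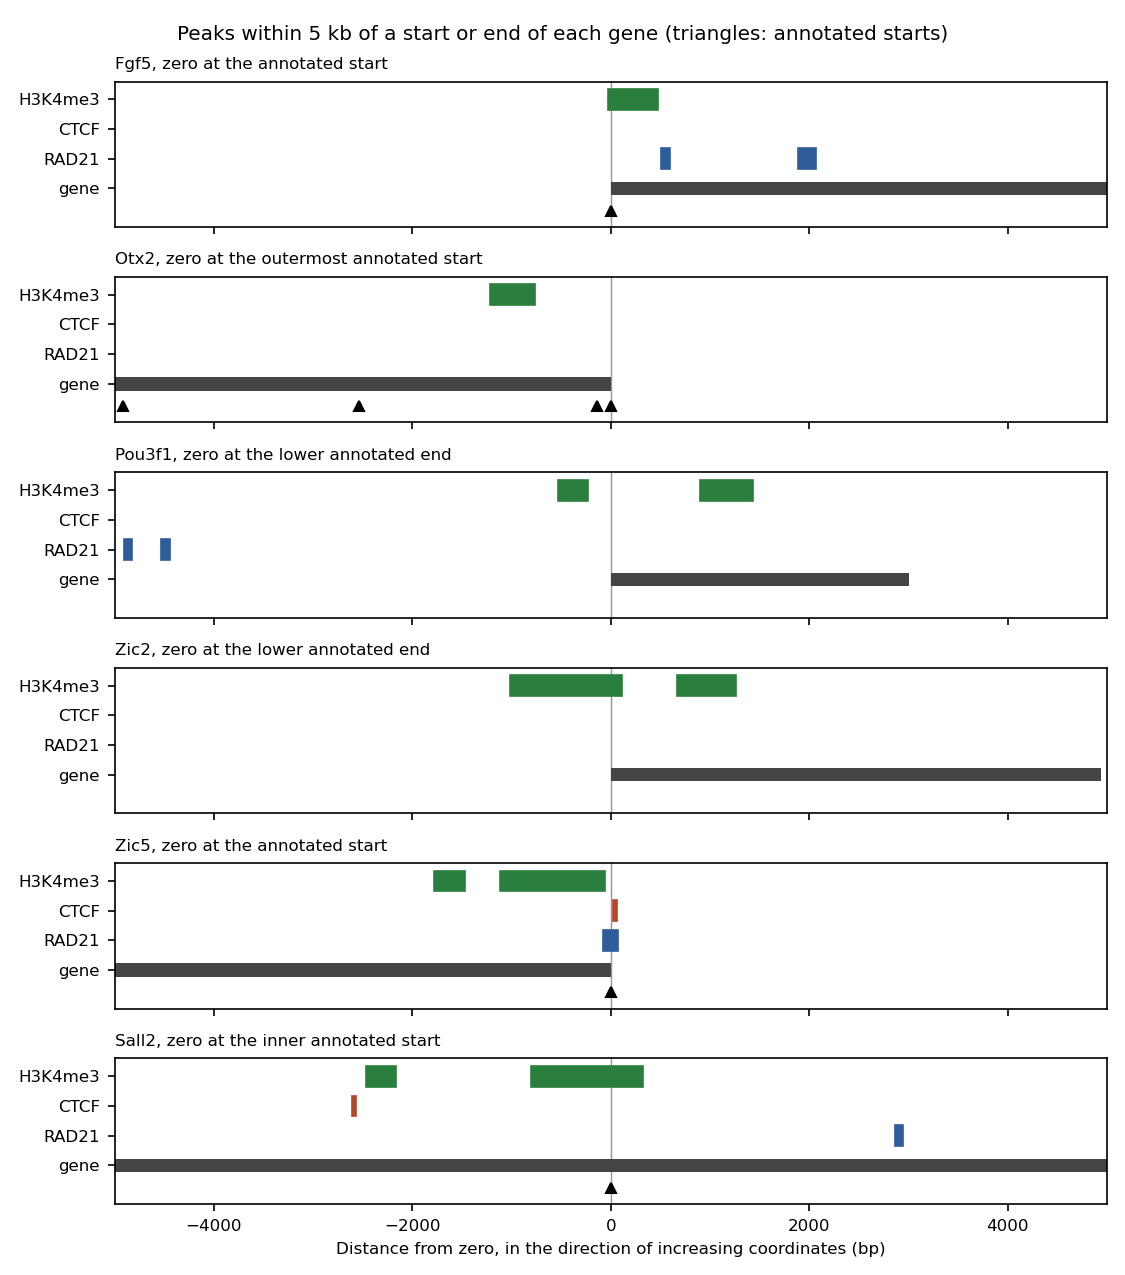
Peaks within 5 kb of a start or end of each gene, with distance in bp along increasing coordinates; bars are called peaks of H3K4me3, CTCF and RAD21, the dark bar is the gene and triangles are annotated starts. H3K4me3 crosses the zero line at Fgf5, Zic2 and the inner start of Sall2. It lies to one side of the line at Otx2 and Zic5, and on both sides without crossing it at Pou3f1. Among these panels CTCF and RAD21 overlap only at the start of Zic5.

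The sequences shown above differ in CpG content, the base composition usually tied to H3K4me3 at promoters. Over all protein-coding starts, the 300 bp window from 250 bases before to 50 after the start had a median observed over expected CpG of 0.79 where H3K4me3 overlapped it and 0.25 where it did not. Fgf5, with H3K4me3 over its start, had 0.83. The inner start of Sall2 had 0.36 and was marked, although 15.0% of starts between 0.2 and 0.4 were. The outermost start of Sall2 had 0.15 and was unmarked, as were all but 1.84% of starts below 0.2.

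Otx2 showed the opposite combination at 1 of its 4 starts. The starts, from the outermost inwards, had CpG ratios of 0.46, 0.47, 0.89 and 0.54, and none was overlapped by H3K4me3. Of starts between 0.8 and 1, 83.1% were marked, so the start at 48665109 stood apart from most starts of its composition. The nearest H3K4me3 lay 1322 bp from it. The other Otx2 starts fell between 0.4 and 0.6, where 51.3% of starts were marked. Zic5 had 0.51, in the same range, and its window missed the nearest peak by a few bases although that peak ended 60 bp from the start.

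**Figure D2:**
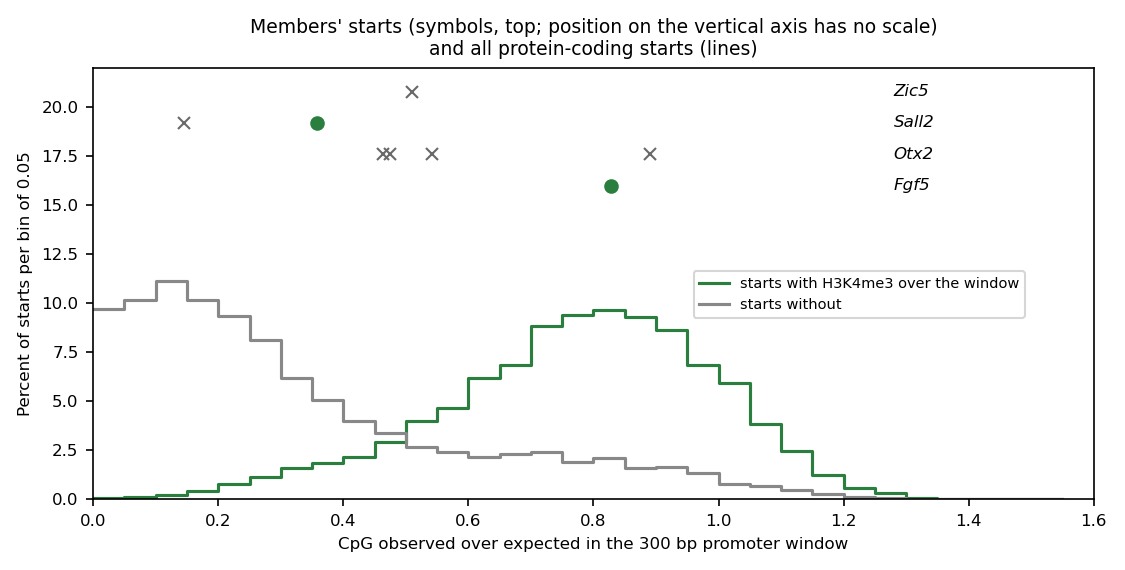
CpG observed over expected in the 300 bp window at each start (horizontal axis); lines give the percent of protein-coding starts per bin, in green with H3K4me3 over the window and in grey without, and symbols above give the members' starts, circles marked and crosses unmarked. The Fgf5 start at 0.83 sits among marked starts, the marked Sall2 start at 0.36 among mostly unmarked ones, and the unmarked Otx2 start at 0.89 among mostly marked ones.

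Motifs were searched on both strands of the same 300 bp windows. The GC box GGGCGG, held by 35.9% of all 32619 starts, occurred once at Fgf5 and once at Zic5. The TATA box TATAAA, held by 13.7%, occurred at Fgf5, at the outermost Otx2 start and at the outermost Sall2 start. At Fgf5 it lay 34 to 39 bases after the annotated start. A 12-letter CTCF core string (3.45% of starts), the E-box CACGTG (7.2%), the octamer ATGCAAAT (1.75%) and the TCF core CTTTGAT (3.76%) were not in any of these windows. No match overlapped another, and a match is a string of letters, not a bound site.

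RAD21 lay within 1 kb of an annotated end of 3 members, Fgf5, Zic5 and Sall2, against 38.6% of protein-coding genes. CTCF lay there at 2, Zic5 and Sall2, against 26.5%. With so few genes these counts are near the background. Among the 5 marked members RAD21 was at 2 and CTCF at 1, against 55.6% and 37.4% of all marked genes. Counted inside the gene body, RAD21 was found at 3 members and CTCF at 1, against 59.5% and 50.5%. The 3 end sites were of different kinds: RAD21 alone at the Fgf5 start, RAD21 with CTCF and H3K4me3 at the Zic5 start, and RAD21 with CTCF at the far end of Sall2. Otx2, Pou3f1 and Zic2 had neither protein at an end.

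At Fgf5 a RAD21 peak of 96 bp, 98254689 to 98254784, lay 505 bp inside the gene. It followed the end of the H3K4me3 peak without touching it. A second RAD21 peak, of 177 bp, lay 1889 bp inside the gene. Another pair of 71 bp, the shortest length in the RAD21 list, lay 21.0 and 33.7 kb beyond the gene. None of the 4 overlapped CTCF, and the upper bound of the Wilson interval is 49.0%. A cruder limit, which puts 3 in place of a count of 0, gives 75%. That rule is meant for many peaks and does not hold for 4. The share is only loosely bounded because 4 peaks are few.

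At Zic5 a RAD21 peak of 151 bp, 122465582 to 122465732, covered the annotated start. RAD21 overlapped 19.2% of the 300 bp start windows of protein-coding genes. The peak enclosed the 39 bp CTCF peak printed in capitals above, at 122465681 to 122465719. CTCF overlapped 9.79% of those windows. The midpoints were 43 bp apart, and the RAD21 peak shared 17 bp with the edge of the H3K4me3 peak. The CTCF peak was among the shortest in its list, since 14.6% of all CTCF peaks were 37 or 39 bp long. Its 39 bases were 53.8% G or C and the CTCF core string was not in them. How many CTCF peaks hold that exact string was not measured, so its absence here cannot be weighed.

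At Sall2 the end site was at the lower end of the gene, which is the end away from both annotated starts. A RAD21 peak of 114 bp lay 570 bp below it, and a CTCF peak of 69 bp lay wholly within, with midpoints 0.5 bp apart. Another RAD21 peak with CTCF, 220 and 57 bp long, lay in the body of the gene, 2397 bp from the outermost start. A 77 bp RAD21 peak without CTCF lay 2865 bp from the inner start. A 39 bp CTCF peak, without RAD21, lay in the body 2570 bp from the inner start. The marked inner start thus had neither protein within 1 kb.

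Over the whole windows the members differed in how crowded they were. RAD21 peaks numbered 4 at Fgf5, 5 at Otx2, 10 at Pou3f1, 4 at Zic2, 6 at Zic5 and 7 at Sall2. Per 100 kb of window these were 3.26, 4.51, 9.71, 3.81, 5.63 and 5.96, against a median of 4.87 for all protein-coding genes (quartiles 2.71 and 6.93). Pou3f1 alone was outside the quartiles, higher than 93.7% of genes. The other 5 lay within them, and their order was set by differences of 0 to 3 peaks, which single lists cannot rank.

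CTCF density was below the median of all genes at 4 members and above it at the others. Peaks numbered 0 at Fgf5, 1 at Otx2, 5 at Pou3f1, 2 at Zic2, 3 at Zic5 and 8 at Sall2, or 0, 0.90, 4.85, 1.91, 2.82 and 6.81 per 100 kb. The median of all genes was 3.63 and the quartiles 1.54 and 6.01. Fgf5 and Otx2 were below the lower quartile and Sall2 above the upper one. A window with no CTCF peak, as at Fgf5, was found for 12.7% of protein-coding genes. The 50 kb limit decides that 0, because the nearest CTCF peaks lay 55.7 kb below Fgf5 and 52.3 kb above it.

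H3K4me3 peaks numbered 1 at Fgf5, 3 at Otx2, 4 at Pou3f1, 7 at Zic2, 7 at Zic5 and 5 at Sall2. The density at Zic2, 6.67 per 100 kb, was higher than at 94.8% of genes, and Zic5, with the same peaks in a slightly longer window, had 6.57. The marked length within the window was 507 bp at Fgf5, 1756 bp at Otx2, 2599 bp at Pou3f1, 4429 bp at Sall2 and 5298 bp at both Zic genes. The median over all genes was 1991 bp. At Sall2, Pou3f1 and the Zic pair part of this length belonged to promoters of neighbouring genes. At Otx2, 521 bp of it lay at an end of the pseudogene Gm48909 and of the snRNA gene LOC115488448, and 788 bp lay inside Otx2os1.

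**Figure D3:**
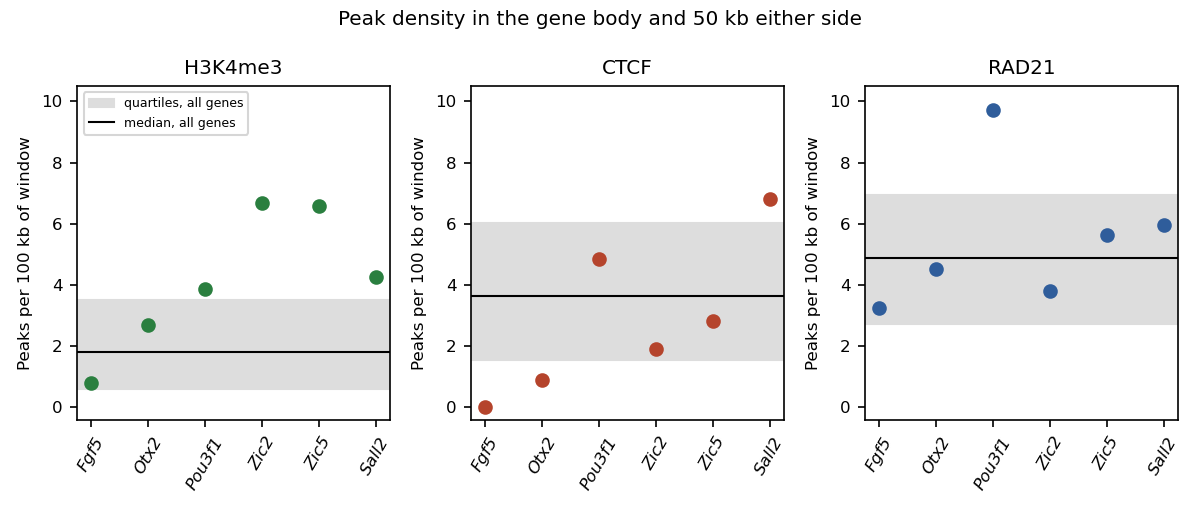
Peaks per 100 kb of window (vertical axis) for each member and antibody; each point is the value of a single list, the line is the median of all protein-coding genes and the grey band runs between their quartiles. Pou3f1 sits at 9.71 for RAD21, above the band; Fgf5 at 0 and Otx2 at 0.90 sit below it for CTCF; Zic2 and Zic5 sit at 6.67 and 6.57 for H3K4me3, above it.

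The windows together held 32 distinct RAD21 peaks, of which 13 overlapped CTCF by at least 1 bp, or 40.6% (95% interval 25.5 to 57.7%). Over the full list the share was 55.9%, inside that interval. By gene window, the median share was 36.7% for the members and 63.6% over all windows with RAD21 (quartiles 50 and 80%). The interval is for pooled distinct peaks and does not apply to these medians, where the peaks shared by the Zic pair count in both windows. Without the shortest peaks the members had 40.7% (95% interval 24.5 to 59.3%) and the full list 60.7%, just above that interval. The members' share was thus below that of the full list in both cases. Only whether the full-list share fell inside the interval depended on which peaks were kept. The interval treats peaks of the same locus as independent, and the difference was not tested. By locus the counts were 0 of 4 at Fgf5, 1 of 5 at Otx2, 4 of 10 at Pou3f1, 2 of 6 at the Zic pair and 6 of 7 at Sall2. The 95% intervals, 0 to 49.0% at Fgf5 and 48.7 to 97.4% at Sall2, barely overlapped. Overlap of separate intervals is not a test of a difference. With so few peaks per locus, differences between loci were not tested and the loci were not ranked by this share. RAD21 with neither CTCF nor H3K4me3 made up 17 of 32 (53.1%, 95% interval 36.4 to 69.1%), against 38.5% of all RAD21 peaks.

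RAD21 with CTCF was longer than RAD21 without it at these loci too. The 13 peaks with CTCF had a median length of 213 bp (71 to 555 bp) and the 19 without had 96 bp (71 to 458 bp). In the full list the medians were 183 and 95 bp. An overlap of at least 1 bp is met more readily by a longer peak. The classes were therefore not defined independently of length. Of the 32 peaks 5 were at the shortest length (15.6%, against 16.1% of all RAD21 peaks). Of 17 distinct CTCF peaks 13 overlapped RAD21 (76.5%, 95% interval 52.7 to 90.4%), against 81.9% of the full list. The 4 without RAD21 were short, at 39 to 70 bp.

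In the Pou3f1 window, RAD21 with CTCF lay on one side of the gene. All 5 RAD21 peaks below the gene lacked CTCF, at distances of 4.45, 4.83, 12.2, 25.9 and 43.2 kb and lengths of 74 to 232 bp. Above it, 1 RAD21 peak at 2.47 kb lacked CTCF and the next 4, from 14.2 to 39.7 kb, all overlapped it. The longest, 423 bp at 124674903 to 124675325, enclosed a CTCF peak of 245 bp and lay between the lncRNA gene Gm38545 and Utp11. The last, of 213 bp, lay 108 bp from an inner start of Fhl3 and shared 18 bp with its H3K4me3 peak. A CTCF peak of 49 bp 7.12 kb below Pou3f1 had no RAD21.

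At Otx2 cohesin with CTCF lay on one side and cohesin without it on the other. A RAD21 peak of 245 bp with a 61 bp CTCF peak inside it lay 36.1 kb below the gene. Above it, 2 peaks of 71 bp lay 7.03 and 7.35 kb away, next to the 788 bp H3K4me3 peak within Otx2os1 but not overlapping it. Peaks of 193 and 148 bp followed at 33.6 and 41.8 kb. All 4 of these lacked CTCF.

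Around the Zic pair RAD21 met each partner at some sites. Of 6 distinct RAD21 peaks 3 overlapped H3K4me3 and 2 overlapped CTCF. The Pcca peak of 434 bp, 122490632 to 122491065, lay wholly inside its H3K4me3 peak, the longest such overlap at this locus. The others shared only 12 and 17 bp with the edge of an H3K4me3 peak. Over all members 6 of 32 RAD21 peaks overlapped H3K4me3 (18.8%, 95% interval 8.89 to 35.3%), against 9.7% of the full list. The longest CTCF peak here and its RAD21 peak, 238 and 191 bp long, lay 5.52 kb below Zic5, between it and Gm5089. The widest RAD21 peak of the locus, 458 bp, lay 42.5 kb below Zic5 with neither partner.

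The Sall2 window held several other genes. RAD21 and CTCF met at the shared promoter of Rab2b, a small GTPase gene, and Tox4, an HMG-box gene, under an H3K4me3 peak of 1291 bp. They met again near an end of Tox4 (RAD21 71 bp, CTCF 230 bp, 16 bp shared), where the gene Mettl3, encoding the RNA N6-adenosine methyltransferase, also ends. A 1153 bp H3K4me3 peak covered a start inside Mettl3. Above Sall2, a RAD21 peak of 555 bp, the longest of all 32, overlapped a 204 bp CTCF peak and a 558 bp H3K4me3 peak 9.79 kb away, at no annotated gene end within 3 kb. Beyond it a pair of 125 and 90 bp lay 15.0 kb from the gene. The olfactory receptor genes Olfr1513 and Olfr1512, farther on, had none of the 3 marks at an end.

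**Figure D4:**
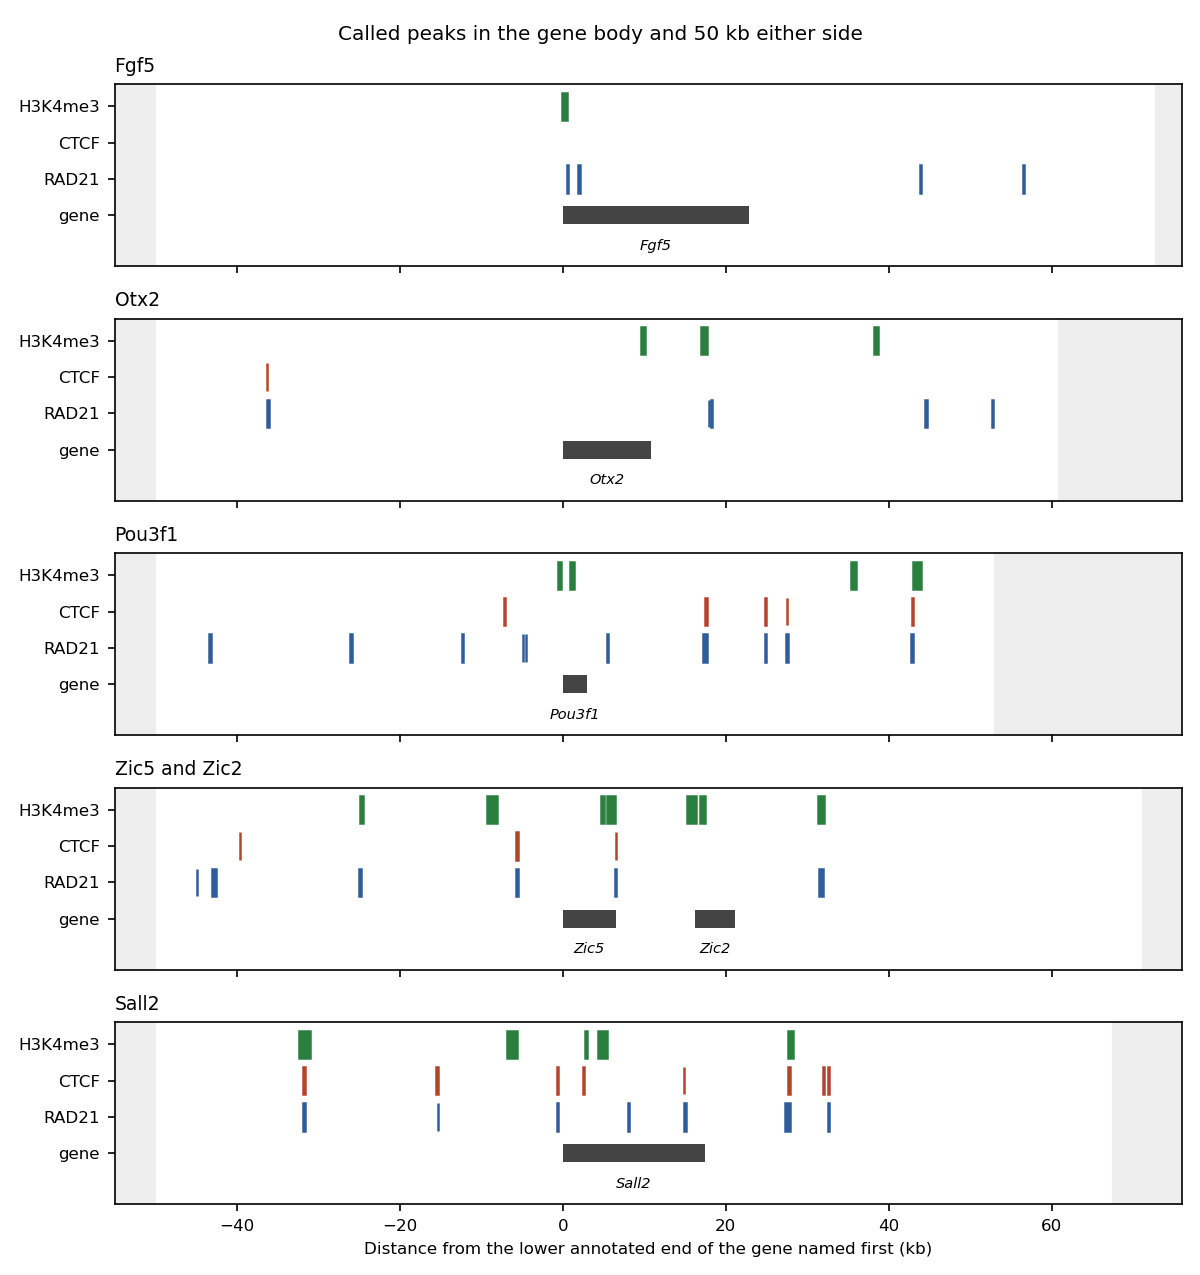
All called peaks in the gene body and 50 kb either side, with distance in kb from the lower end of the gene named first; rows are H3K4me3, CTCF, RAD21 and the gene, grey areas are outside the window, and an outline keeps short peaks visible, so they are drawn slightly wide. The CTCF row is empty at Fgf5 and holds 8 peaks at Sall2, and at Pou3f1 the 5 RAD21 peaks left of the gene have no CTCF peak over them.

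The distance to the nearest CTCF peak that overlaps RAD21, the usual form of a loop anchor, set the members apart further. Below and above the gene body these distances were 59.0 and 52.3 kb at Fgf5, 36.2 and 86.7 kb at Otx2, and 261 and 14.4 kb at Pou3f1. They were 9.66 and 97.6 kb at Zic2, 5.51 and 0.023 kb at Zic5, and 0.592 and 10.1 kb at Sall2. The sum of both had a median of 54.9 kb over all genes. Pou3f1 at 275 kb exceeded 85.0% of genes, while Zic5 at 5.54 kb and Sall2 at 10.7 kb exceeded 3.29% and 8.72%. Zic2 and Zic5 thus lay on either side of the Zic5 start site, the one CTCF peak between them. That peak was one of the shortest calls, so the separation rests on it. Whether any of these sites form loops was not measured.

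**Figure D5:**
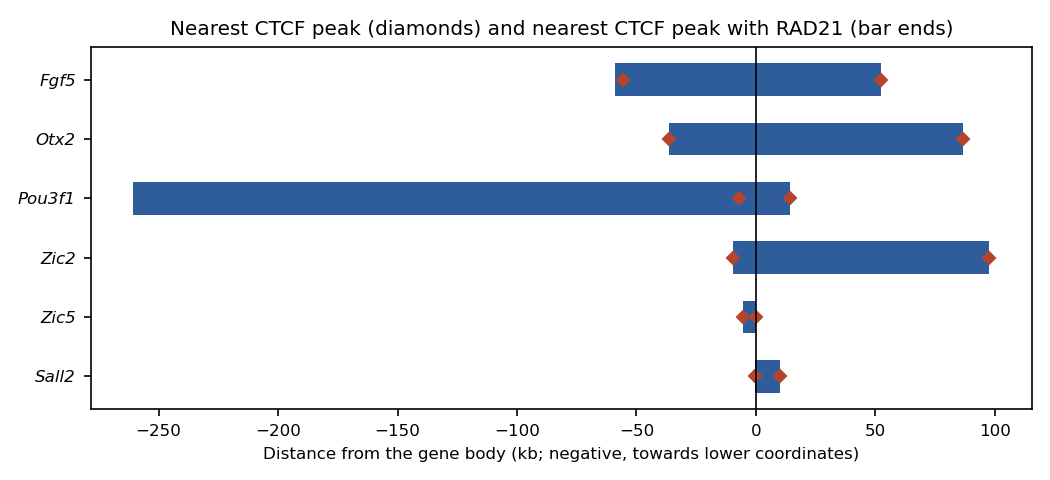
Distance in kb from each gene body to the nearest CTCF peak on either side (diamonds) and to the nearest CTCF peak that overlaps RAD21 (ends of the bars), negative towards lower coordinates. Both coincide at every member except Fgf5 and Pou3f1, where the lower bar reaches 59.0 and 261 kb but a CTCF peak without RAD21 lies at 55.7 and 7.12 kb.

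Other genes of the primed or formative state gave a frame for these values. Of 21 such genes, 17 had H3K4me3 at an end (81.0%), 6 had RAD21 (28.6%) and 7 had CTCF (33.3%). Over all protein-coding genes these shares were 57.2%, 38.6% and 26.5%. Their widest end peaks had a median of 954 bp where marked, led by Nodal (1750 bp), a TGF-beta family ligand, and Eomes (1368 bp), a T-box factor. Cer1, which encodes a secreted antagonist of Nodal, and Dnmt3a, a de novo DNA methyltransferase gene, had none at an end. Dnmt3a did have H3K4me3 in its body, and Cer1 did not. In the windows of the 21 genes 62.5% of RAD21 peaks overlapped CTCF, counting each window on its own. The members counted in that way had 41.7%.

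Genes of the naive and core network had wider peaks than most of the members. H3K4me3 was at an end of 13 of 15, against 57.2% of protein-coding genes. The median widest peak was 1623 bp, against 532 bp for the 5 marked members. Nanog had 2792 bp and Tbx3, a T-box factor gene, 2268 bp. Esrrb and Nr5a2, both nuclear receptor genes, had peaks in the body only, as Sall2 did. Before any merging, the widest peak at each marked member was narrower than the 1163 bp at Nr0b1. Dppa3 had 436 bp and Tdh 594 bp, beside 447 bp at Otx2, 507 bp at Fgf5 and 532 bp at Pou3f1. RAD21 and CTCF were each at an end of 5 of the 15, against 38.6% and 26.5% of protein-coding genes. The difference in width was not tested, since a width in 1 list has no error.

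Relatives of the members in the same gene families were compared by the same counts. Of 12 paralogs 10 had H3K4me3 at an end, with a median of 687 bp, against 57.2% of protein-coding genes with such a peak. Fgf4, which encodes a growth factor expressed by naive cells, had 2686 bp and Sall4, a pluripotency factor gene, 1912 bp. Fgf6 and Pou3f4 had none. Pou3f2 and Pou3f3 had 488 and 342 bp, near the 532 bp of Pou3f1, and Zic1 and Zic4, which share a 398 bp peak, were narrower than Zic2 and Zic5. RAD21 and CTCF lay at an end of 1 of the 12, Pou3f2, against 38.6% and 26.5% of protein-coding genes.

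The identity of the cells was checked by the same count. H3K4me3 was at an end of 6 of 6 embryonic stem cell genes, 2 of 4 genes of extra-embryonic endoderm, 2 of 4 of trophoblast and 1 of 5 of fibroblasts. Over all protein-coding genes the share was 57.2%, so 2 of 4 was near the background and says little about identity. At Cdx2 and Hand1, the marked trophoblast genes, the widest peaks were 294 and 307 bp. Gata6 and Sox17, of endoderm, had 855 and 1808 bp, and Twist1, of fibroblasts, had 791 bp. The embryonic stem cell genes ran from 436 bp at Dppa3 to 2792 bp at Nanog, so width did not separate the groups. A marked promoter is not a measure of transcription, so these counts, like those of the members, do not show which genes were expressed.

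For each member the gene nearest in overall pattern was found. Over 20063 genes with RAD21 in the window, the values compared were H3K4me3 length, RAD21 and CTCF density and the share of RAD21 with CTCF, all standardised. The nearest gene was Fbxw17 for Fgf5 (4 RAD21 and 0 CTCF peaks), Il1a for Otx2 (5 and 1) and Tmed1 for Pou3f1 (10 and 5). It was Lmntd2 for Zic2 (4 and 2), Ccdc87 for Zic5 (6 and 3) and Kcnj4 for Sall2 (8 and 9). Standardised distances were 0.041 to 0.093. The distances of other genes to their own nearest match were not computed, so whether these are small cannot be said.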

How the data were processed

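ChIP-exo peak lists from Bruce-4 cells were used as deposited by the authors: chromosome, start and end in bp, with no score or count. The submitters' processing notes list these tools with no role for any: MACS2, bedtools (2.30.0), Picard (2.27.4) and Bowtie2 (2.4.5), on build mm10. Calling thresholds and any control library were not stated in the labels. Depth is unknown. A single CTCF list, called a union by its name and filed with replicate 2, was used, so the 2 CTCF libraries could not be compared.

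Peaks on the 19 autosomes and X were intersected in Python 3.11.15 (numpy 2.4.6, pandas 2.3.3, scipy 1.17.1) at 1 bp or more. The count of RAD21 peaks overlapping CTCF was checked against bedtools 2.31.1, and the overlap code was tested on simulated data. Genes and starts came from RefSeq, GRCm38.p6. An end peak lay within 1 kb of either outer end of a gene. Members and lists were chosen with earlier results of these data known. All members and all genes with an end in their windows could be named, with the 2 widest marked and first 2 unmarked genes of other lists. Other names there (Dppa3, Tdh, Nr0b1, Pou3f2, Pou3f3, Zic1, Zic4, Cdx2, Hand1, Gata6, Sox17, Twist1) were chosen after their values were seen. Alternatives varied windows, overlap and peak length.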

Additional observations from a re-analysis of the deposited data

How the results depend on the processing

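Of 35 alternative values, 23 stayed close to the main one (counts and densities within 1.5 times, the share within its 95% interval) and 12 moved. H3K4me3 at member ends, 5 of 6, was 4 to 6 under every change of window or merging, but 2 among peaks of at least the median length. RAD21 at ends, 3 of 6, fell to 1 within 500 bp and to 1 among the longer peaks. CTCF at ends, 2 of 6, was 1 within 500 bp, 1 by annotated start (4 genes), 1 in gene bodies, 1 without the shortest peaks and 0 among the longer peaks. With the longer peaks alone, densities per 100 kb moved from 5.56 to 2.96 for RAD21 and from 2.96 to 0.869 for CTCF, as the construction of that setting requires. The share of RAD21 with CTCF, 40.6%, was 23.5% with both lists cut to their longer peaks (full list, 48.8%) and 18.8% when 50% of the RAD21 peak had to be covered (full list, 33.4%). With only RAD21 cut, an alternative chosen after seeing the data, it was 52.9% (9 of 17; full list, 73.4%). It was 45.5% within 25 kb and 49.1% within 100 kb. No paired analysis was possible because each antibody had 1 peak list and no test was made. With 6 genes, 5 loci, single lists and no peak height, small differences between members cannot be told from chance in calling.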
